A study of Mus musculus with 21 samples.

Results

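Keratins are the intermediate filament proteins of epithelial cells, and the 8 keratin genes Krt5, Krt7, Krt8, Krt14, Krt15, Krt17, Krt18 and Krt19 were followed in mouse embryonic stem cells treated with inhibitors of RNA polymerase I. They were taken by symbol from a table of 20900 genes, which holds 43 other keratin genes. The set was chosen on measured values of these same libraries, with Krt5 picked for its rise, so Krt5 is described here without a test. The other 7 were also listed with these results known, and their p-values are to be read with that in mind.

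The data were poly(A) RNA-seq libraries of E14 cells, an embryonic stem cell line of the 129 strain grown with leukaemia inhibitory factor (LIF). Cells were left untreated (0 h, the control) or kept for 2, 4 or 8 h with 1 of the 2 inhibitors, BMH-21 or CX-5461, each at 1 µM, which gave 7 groups of 3 replicates and 21 libraries. BMH-21 and CX-5461 are small molecules that block transcription of ribosomal DNA by RNA polymerase I. The same 3 untreated libraries were the control for both inhibitors and all times, and all libraries came from 1 cell line. There was no untreated or vehicle group at 2, 4 or 8 h. The inhibitor and the hours in culture thus cannot be told apart in comparisons with control or between times. The labels do not say that replicates were separate cultures, so p-values measure the spread between these libraries, which may be technical.

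Libraries held 46604397 to 62812641 reads over the genes of the table, and 3 reads corresponded to a log2 level between -4.63 and -3.59. A level here is the deposited log2 value, the log2 of reads plus 0.5 over a scaled library size. The deposited scaling differed between groups, so that the median difference over 14666 tested genes was -0.40 for BMH-21 and 0.11 for CX-5461 at 8 h against control, and -0.48 for BMH-21 against CX-5461. For this reason values after centring each library on its median are also given where centring changed a call. The 8 embryonic stem cell markers examined were all present, with 70673 to 78440 reads of Pou5f1 in the control libraries, and summed to 5011 to 5107 RPM there (reads scaled to 1000000 per library). That sum was 2859 to 3072 RPM in the BMH-21 libraries at 8 h and 4369 to 4453 RPM in those of CX-5461.

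Keratins form filaments as pairs of 1 type I and 1 type II protein. Krt5, Krt7 and Krt8 are type II keratins, and Krt14, Krt15, Krt17, Krt18 and Krt19 are type I. Krt5 pairs with Krt14 in the basal layer of stratified epithelia, where Krt15 is also made, while Krt8 and Krt18 form the first keratin filaments of the embryo and those of simple epithelia. Krt7 and Krt19 are made in many simple and ductal epithelia and in trophoblast, and Krt17 in skin appendages and in stressed epidermis.

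The genes lie in the 2 keratin clusters of the mouse genome (GRCm38, GENCODE M21 annotation, the mm10 build that the submitters' processing notes name). On chromosome 15 are Krt7 at chr15:101411043-101430313 on the plus strand, Krt5 at chr15:101707070-101712898 and Krt8 at chr15:101996698-102004482 on the minus strand, and Krt18 at chr15:102028180-102032027 on the plus strand. On chromosome 11, all on the minus strand, are Krt15 at chr11:100131758-100135928, Krt19 at chr11:100140810-100148665, Krt14 at chr11:100203162-100207548 and Krt17 at chr11:100256217-100261029. Krt18 is a type I gene that lies next to Krt8, within the type II cluster.

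The start regions of Krt5 and Krt7, type II genes that rose with both inhibitors, and of Krt8 and Krt18, the pair of simple epithelia that was expressed before treatment, are shown from RefSeq (GRCm38.p6), each from 250 bases before to 50 bases after the annotated start and 5′ to 3′ along the gene. They are chr15:101712856-101713155 (minus strand) for Krt5, chr15:101412153-101412452 (plus) for Krt7, chr15:102004293-102004592 (minus) for Krt8 and chr15:102027966-102028265 (plus) for Krt18. Capitals mark matches, on either strand, to the TATA box TATAAA, its variant ATAAAA, the AP-1 motif TGANTCA, the Sp1 motif GGGCGG or the AP-2 motif GCCNNNGGC.
Krt5: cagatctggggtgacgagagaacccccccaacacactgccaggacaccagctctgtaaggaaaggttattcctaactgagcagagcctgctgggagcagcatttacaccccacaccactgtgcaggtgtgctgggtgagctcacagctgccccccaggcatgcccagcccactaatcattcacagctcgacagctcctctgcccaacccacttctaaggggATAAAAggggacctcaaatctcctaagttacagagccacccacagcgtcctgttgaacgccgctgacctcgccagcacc
Krt7: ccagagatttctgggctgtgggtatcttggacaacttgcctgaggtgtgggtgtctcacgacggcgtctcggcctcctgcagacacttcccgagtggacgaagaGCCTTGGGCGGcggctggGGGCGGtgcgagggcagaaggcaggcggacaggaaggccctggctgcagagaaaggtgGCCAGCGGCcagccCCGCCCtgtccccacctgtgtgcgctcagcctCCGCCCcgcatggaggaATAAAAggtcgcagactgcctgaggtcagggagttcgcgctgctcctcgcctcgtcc
Krt8: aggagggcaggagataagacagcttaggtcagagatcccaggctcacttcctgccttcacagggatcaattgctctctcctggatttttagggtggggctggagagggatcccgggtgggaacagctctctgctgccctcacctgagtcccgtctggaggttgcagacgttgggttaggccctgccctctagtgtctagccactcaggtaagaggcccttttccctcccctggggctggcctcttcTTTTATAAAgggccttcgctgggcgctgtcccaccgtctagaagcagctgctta
Krt18: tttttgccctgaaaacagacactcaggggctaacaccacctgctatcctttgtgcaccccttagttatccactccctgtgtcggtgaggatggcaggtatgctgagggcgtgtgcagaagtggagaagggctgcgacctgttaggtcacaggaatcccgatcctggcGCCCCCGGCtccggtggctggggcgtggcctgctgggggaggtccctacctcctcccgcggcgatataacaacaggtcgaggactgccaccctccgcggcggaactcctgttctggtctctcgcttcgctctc
The Krt5 window held 1 match, ATAAAA at position -29 counted from the start as 0. The Krt7 window held ATAAAA at -7, 4 copies of GGGCGG at -141, -128, -56 and -24, and GCCNNNGGC at -146 and -70. The first copy of GGGCGG in Krt7 overlaps the match of GCCNNNGGC before it. The Krt8 window held TATAAA at -1, with overlapping matches on the other strand at -3 and -4, and the Krt18 window held GCCNNNGGC at -83. No match to TGANTCA was found in these windows. Of 27025 RefSeq windows of the same length, 14.2% held TATAAA, 19.1% ATAAAA, 7.9% TGANTCA, 35.9% GGGCGG and 16.5% GCCNNNGGC, so none of these matches is rare. RefSeq windows were matched for 5 of the 8 genes. The RefSeq start of Krt5 is 7 bases upstream of the GENCODE start of the coding transcript used here, and those of Krt7, Krt8 and Krt18 are 1, 140 and 36 bases downstream of it. The Krt7 window thus lies inside the outer bounds of the gene, for which GENCODE also lists transcripts that begin farther upstream. The Krt14 window lies 1518 bases downstream and is not shown.

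Krt5, the basal epithelial type II keratin, went from near absence to one of the largest differences in the table with both inhibitors. Its control levels were -2.16, -2.11 and -1.36, which are 10, 10 and 18 reads. With BMH-21 they were 0.75, 1.03 and 0.95 at 2 h, 5.37, 5.11 and 5.12 at 4 h, and 7.07, 7.05 and 7.44 at 8 h, the last being 8086, 11441 and 10879 reads. With CX-5461 the levels were 1.15, 0.52 and 0.67 at 2 h, 4.04, 3.97 and 4.10 at 4 h, and 4.60, 4.74 and 4.80 at 8 h. Every treated library was above every control library, and every BMH-21 library was above every CX-5461 library at 4 and 8 h but not at 2 h.

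The mean difference of Krt5 from control was 2.79, 7.08 and 9.06 on the log2 scale at 2, 4 and 8 h for BMH-21, against 2.66, 5.91 and 6.59 for CX-5461, each with a standard error of 0.14. In linear terms the 8 h differences were 535-fold and 96.2-fold. Krt5 was chosen for this rise, which is therefore a description. It was not the largest in the table: at 8 h of BMH-21 Glp2r, with 0 to 2 control reads, had a larger difference (9.28) and Klhl30, with 1 to 7 control reads, the next smaller (8.17). Glp2r also ranked above Krt5 at 8 h of CX-5461, and Krt5 ranked 9 from the top at 4 h of CX-5461. In bulk RNA, more cells that make a transcript and more transcript per cell cannot be told apart.

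**Figure D1:**
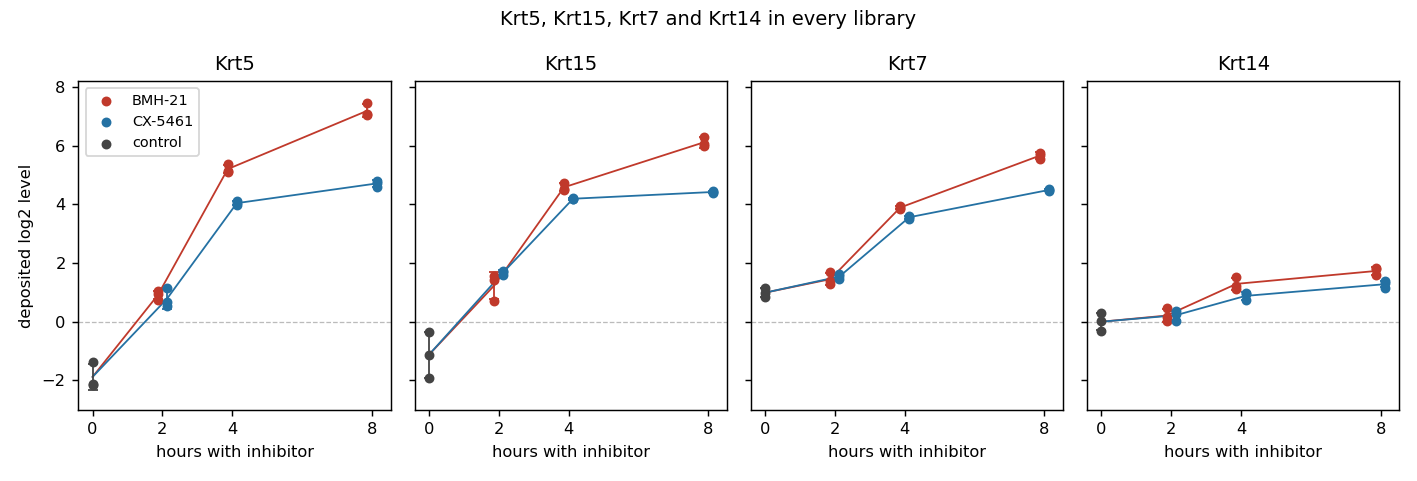
Deposited log2 level of Krt5, Krt15, Krt7 and Krt14 (y axis) against hours with inhibitor (x axis) for control (grey), BMH-21 (red) and CX-5461 (blue); points are libraries, bars are the mean ± SD of 3 libraries and lines join means. Krt5 goes from a mean of -1.88 to 7.19 (BMH-21) or 4.71 (CX-5461), and the 2 inhibitors separate from 4 h on.

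Krt15, the type I keratin of basal epithelium and hair follicle stem cells, rose in much the same way. Its levels were -1.12, -0.36 and -1.92 in control, and 0.71, 1.42 and 1.56, then 4.73, 4.50 and 4.52, then 5.97, 6.06 and 6.31 after 2, 4 and 8 h of BMH-21. With CX-5461 they were 1.71, 1.59 and 1.73, then 4.18, 4.18 and 4.23, then 4.40, 4.43 and 4.44. The control libraries spread more than those of any other group for this gene (SD 0.78, at 12 to 35 reads), and all treated libraries lay above them. In limma with Benjamini-Hochberg adjustment over all genes tested, Krt15 was called higher than control at every time, by 2.36 at 2 h of BMH-21, 5.72 at 4 h and 7.25 ± 0.15 (SE) at 8 h. The differences for CX-5461 were 2.81, 5.33 and 5.56. The replicate SD of Krt15 (0.353) was above the moderated SD of the fit (0.189), and it passed the filter on low levels only through treated libraries, so these calls are not support for its rise.

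Krt7, a type II keratin of simple and ductal epithelia, started higher and rose later. Its control levels were 1.14, 0.98 and 0.85, or 85 to 103 reads. Those with BMH-21 were 1.30, 1.68 and 1.38 at 2 h, 3.95, 3.83 and 3.88 at 4 h and 5.55, 5.68 and 5.76 at 8 h. Those with CX-5461 were 1.62, 1.46 and 1.55, then 3.56, 3.60 and 3.50, then 4.53, 4.47 and 4.48. The groups were ordered without overlap at 4 and 8 h, with BMH-21 above CX-5461. The rise was 0.46 at 2 h of BMH-21 (limma adjusted p 0.0026) and 0.55 for CX-5461 (2.2e-04), and 4.67 ± 0.12 (SE) and 3.50 ± 0.12 at 8 h (5.0e-68 and 6.1e-54). The call at 2 h of BMH-21 was lost with voom weights (0.46, adjusted p 0.06) and without BMH-21 2 h replicate 2 (0.35, 0.055).

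Krt14, the type I partner of Krt5 in basal keratinocytes, rose far less. Its control levels were 0.02, 0.29 and -0.30, at 38 to 55 reads. BMH-21 gave 0.01, 0.46 and 0.17 at 2 h, 1.13, 1.23 and 1.51 at 4 h and 1.58, 1.80 and 1.82 at 8 h. CX-5461 gave 0.35, 0.04 and 0.28, then 0.93, 0.98 and 0.73, then 1.31, 1.16 and 1.38. The 2 h libraries overlapped the control, and those at 4 and 8 h lay above it. The differences at 4 and 8 h were 1.29 and 1.73 for BMH-21 (limma adjusted p 2.5e-09 and 9.2e-15) and 0.88 and 1.28 for CX-5461 (3.0e-05 and 4.8e-09), each ± 0.19 (SE). Of the Krt14 transcript 14.4% of the 50-base words also occur in other genes, most of all in Krt16 and Krt17. How reads of such stretches were counted is not given in the sources used here.

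Krt8, the type II keratin of simple epithelia, was expressed before treatment. Its control levels were 4.06, 4.12 and 3.83, those with BMH-21 3.88, 3.89 and 3.85, then 3.74, 3.54 and 3.57, then 3.72, 3.77 and 3.65, and those with CX-5461 4.07, 3.84 and 3.85, then 3.60, 3.59 and 3.57, then 4.76, 4.64 and 4.62. The 4 h libraries of both inhibitors lay below all control libraries, and the 8 h libraries lay below them with BMH-21 and above them with CX-5461. At 4 h Krt8 had fallen by 0.39 with BMH-21 and by 0.42 with CX-5461 (limma adjusted p 0.0018 and 7.6e-04), and the CX-5461 difference was -0.17 with median-ratio factors (adjusted p 0.054). At 8 h the difference was -0.29 with BMH-21 (0.015) and 0.67 with CX-5461 (2.1e-07). The BMH-21 difference at 8 h depended on the scaling: it was -0.08 after centring (adjusted p 0.33) and 0.06 with median-ratio factors (0.44), and it missed the threshold without control replicate 1 (-0.26) or 2 (-0.24) or without BMH-21 8 h replicate 3 (-0.26). Of the Krt8 transcript 26.9% of the 50-base words also occur in the pseudogene Krt8-ps, so part of its count is uncertain.

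Krt18, the type I partner of Krt8, moved with it. Its levels were 3.66, 3.65 and 3.42 in control, 3.43, 3.38 and 3.45, then 2.97, 2.79 and 2.91, then 2.86, 2.82 and 2.82 with BMH-21, and 3.62, 3.31 and 3.18, then 2.87, 3.11 and 2.80, then 3.98, 4.03 and 3.81 with CX-5461. It had fallen by 0.68 at 4 h of BMH-21 and by 0.65 at 4 h of CX-5461 (limma adjusted p 4.5e-07 and 1.6e-06). At 8 h the differences were -0.74 and 0.37 ± 0.12 (SE) (3.1e-08 and 0.0082). The CX-5461 rise at 8 h was 0.15 after centring (adjusted p 0.11) and 0.06 with quantile normalization (0.57), and it was also lost without control replicate 3 (0.29) or CX-5461 8 h replicate 2 (0.32). The BMH-21 fall was -0.53 after centring and kept its call.

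Krt17, a type I keratin of skin appendages and wounded epidermis, had the largest fall of the 8 genes. Its control levels were 4.22, 4.36 and 3.97. With BMH-21 they were 4.02, 4.03 and 4.05, then 3.86, 3.67 and 3.65, then 2.83, 2.67 and 2.68, and with CX-5461 4.27, 3.94 and 4.11, then 3.68, 3.84 and 3.62, then 4.69, 4.58 and 4.62. Levels at 4 h were alike for both inhibitors, while at 8 h those of BMH-21 were the lowest and those of CX-5461 the highest of all groups. The difference from control was -0.46 and -0.47 at 4 h (limma adjusted p 3.1e-04 and 1.9e-04), and at 8 h -1.46 ± 0.12 (SE) for BMH-21 (4.7e-23) and 0.45 ± 0.12 for CX-5461 (6.3e-04). After centring the 8 h differences were -1.25 and 0.23.

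Krt19, a type I keratin of simple epithelia, rose only by 8 h. Its levels were 4.30, 4.25 and 3.95 in control, 4.01, 3.86 and 3.95, then 4.15, 4.01 and 4.20, then 5.15, 5.21 and 5.31 with BMH-21, and 4.31, 3.82 and 4.12, then 4.24, 4.43 and 4.34, then 5.77, 5.73 and 5.94 with CX-5461. All groups before 8 h overlapped the control, and the 8 h groups lay above all others. The rise at 8 h was 1.06 ± 0.11 (SE) for BMH-21 and 1.65 ± 0.11 for CX-5461 (limma adjusted p 3.6e-15 and 8.7e-27). At 4 h of CX-5461 the difference was 0.17 (0.17), but 0.33 after centring, where it passed the threshold (0.003).

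**Figure D2:**
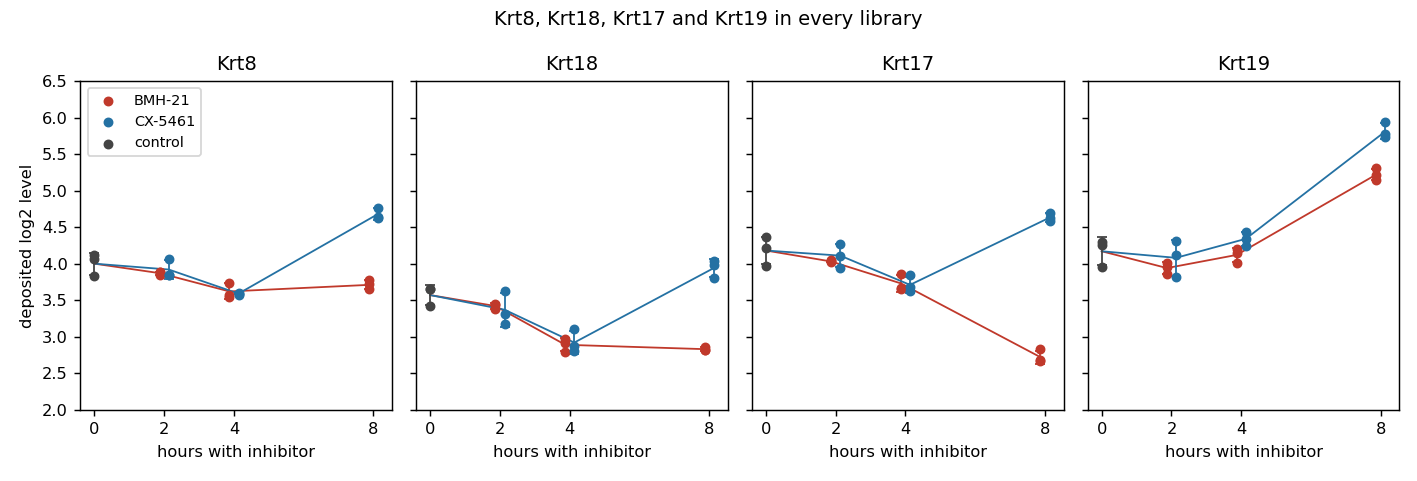
Deposited log2 level of Krt8, Krt18, Krt17 and Krt19 (y axis) against hours with inhibitor (x axis), with colours, points and bars as in the plot of Krt5, Krt15, Krt7 and Krt14. The first 3 fall to 4 h with both inhibitors and then part, with Krt17 at 2.72 (BMH-21) and 4.63 (CX-5461) at 8 h, whereas Krt19 is above control at 8 h with both.

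Counted over the 7 genes other than Krt5, 2 were higher (Krt7 and Krt15) and 0 lower at 2 h of BMH-21, where 8.48% of the 14666 genes tested were called higher and 11.2% lower. At 4 h of BMH-21, 3 were higher and 3 lower, against 22.1% and 44.9% of all genes, and at 8 h 4 were higher and 3 lower, against 24.5% and 56.9%. For CX-5461 the counts were 2 and 0 at 2 h (7.45% and 20.5% of all genes), 3 and 3 at 4 h (19.8% and 51.2%) and 7 and 0 at 8 h (35.1% and 14.3%). The lower calls at 4 h and at 8 h of BMH-21 are thus near the share over all genes. The median difference of the 7 was 1.06 at 8 h of BMH-21 and 1.28 at 8 h of CX-5461, beside -0.40 and 0.11 over all genes tested. All 8 genes passed the filter on low levels (log2 above 0 in at least 3 of the 21 libraries), but Krt5 and Krt15 passed it in 0 control libraries and in all 18 treated ones, and Krt14 in 2 of 3 control libraries, so the higher calls of Krt15 in these counts are not support.

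**Figure D3:**
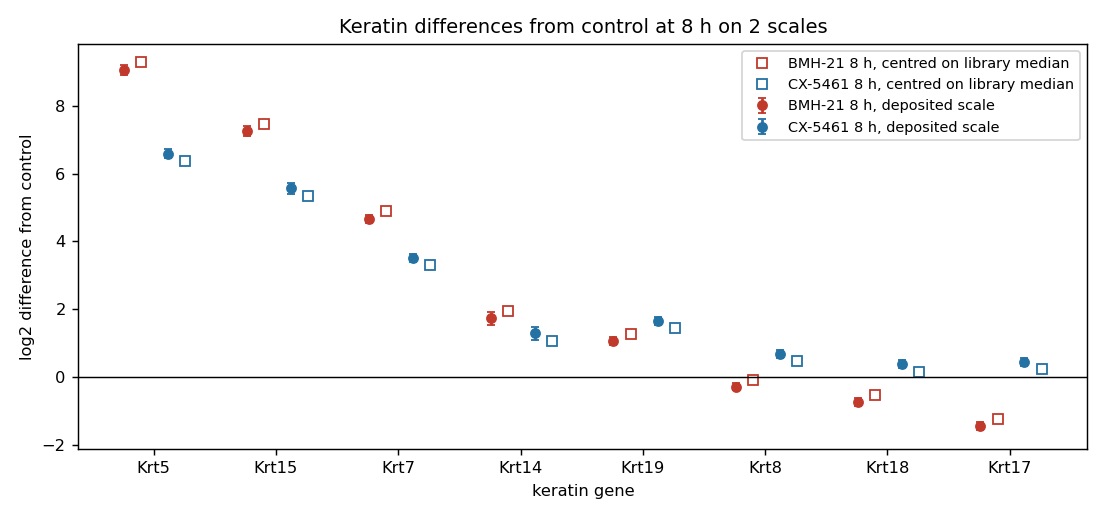
Log2 difference from control at 8 h (y axis) for the 8 keratin genes (x axis) with BMH-21 (red) and CX-5461 (blue); filled circles with SE bars are on the deposited scale and open squares are after centring each library on its median. Krt8 with BMH-21 moves from -0.29 to -0.08 and Krt18 with CX-5461 from 0.37 to 0.15, while the other differences keep their sign and their side of the threshold.

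The inhibitors were compared directly at the same 1 µM dose and at the same times. At 2 h, 0 of the 7 genes were called in limma in either direction, against 2.47% of all genes higher and 1.52% lower with BMH-21. At 4 h only Krt7 was called, 0.33 ± 0.12 (SE) higher with BMH-21 (adjusted p 0.047), against 9.35% and 8.49% of all genes. That call was lost in 10 of the alternatives, including the stricter filter (adjusted p 0.05) and the fit of the groups compared alone (0.1). Krt14 and Krt15 had differences of 0.41 and 0.39 at 4 h (0.13 and 0.065), and Krt14 passed the threshold after centring (0.40, 0.039), with no overlap between the libraries of the 2 inhibitors.

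At 8 h all 7 genes differed between the inhibitors. Krt7, Krt14 and Krt15 were higher with BMH-21, by 1.17, 0.45 and 1.69, against 12.0% of all genes, and Krt8, Krt17, Krt18 and Krt19 were lower with BMH-21, against 67.2% of all genes. Krt8, Krt17 and Krt18 differed by -0.96, -1.91 and -1.11 (limma adjusted p 4.7e-13, 8.2e-31 and 2.0e-14), and by -0.54, -1.48 and -0.68 after centring. Krt19 differed by -0.59 (2.2e-06) but by -0.16 after centring (0.12). The Krt14 difference (0.027) was lost without BMH-21 8 h replicate 2 or 3 or CX-5461 8 h replicate 2, with adjusted p from 0.073 to 0.094. Krt5 was 2.48 higher with BMH-21, in 3 of 3 libraries.

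Between 4 and 8 h of BMH-21, Krt7 rose by 1.78, Krt15 by 1.53, Krt19 by 1.10 and Krt14 by 0.44. Krt17 fell, from a mean of 3.73 to 2.72. Of all genes, 18.6% were called higher and 37.8% lower. Krt14 (limma adjusted p 0.04) lost its call with no filter and without BMH-21 replicate 1 or 2 at 4 h or replicate 2 or 3 at 8 h. With CX-5461, Krt7, Krt8, Krt17, Krt18 and Krt19 rose, by 0.92 to 1.47, where 58.8% of all genes were called higher and 4.85% lower. The differences of Krt14 and Krt15 with CX-5461 were 0.40 (0.057) and 0.23 (0.18), the latter being -0.14 after centring (0.57). Krt5 differed by 1.99 between 4 and 8 h of BMH-21 and by 0.67 for CX-5461, or 0.30 after centring. With CX-5461 the level of Krt15 at 8 h was within 0.23 of that at 4 h, while with BMH-21 it went on rising.

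Levels were compared between genes per length, in RPKM (reads per kb of transcript, scaled to 1000000 reads per library), computed on total reads rather than on the deposited scaling. In control cells Krt17 (10.2 ± 0.71, SD, n = 3), Krt19 (9.94 ± 0.61), Krt18 (7.22 ± 0.16) and Krt8 (7.14 ± 0.25) made up nearly all of the 8 genes' sum. Krt14 (0.512 ± 0.074), Krt7 (0.421 ± 0.027), Krt15 (0.246 ± 0.12) and Krt5 (0.110 ± 0.047) were far below them. After 8 h of BMH-21 Krt5 was the highest (84.2 ± 11), followed by Krt15 (51.7 ± 6.2), Krt19 (30.0 ± 2.5) and Krt7 (15.7 ± 1.7), and Krt14 (2.48 ± 0.34) was the lowest. After 8 h of CX-5461 Krt19 was the highest (32.9 ± 2.9), ahead of Krt17 (14.7 ± 0.14), Krt8 (12 ± 0.33), Krt15 (11.6 ± 0.51) and Krt5 (11 ± 1.1). On this scale Krt8 was higher after 8 h of BMH-21 (8.47 ± 0.96) than in control, the opposite of its deposited direction, whereas Krt17 (5.38 ± 0.35) and Krt18 (6.26 ± 0.43) were lower on both. The annotated Krt7 transcript is long (4094 bases), which lowers its value here.

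Among the 8 genes, the balance of the 2 keratin types shifted toward type II, more so with BMH-21 than with CX-5461. The 3 type II genes summed to 7.67 ± 0.20 RPKM (SD, n = 3) in control and the 5 type I genes to 28.2 ± 1.5. At 4 h with BMH-21 the sums were 27.0 ± 0.078 and 40.8 ± 1.4, and after 8 h 108 ± 12 and 95.8 ± 8.8. After 8 h of CX-5461 they were 28.1 ± 0.83 and 70.4 ± 2.9. Krt5 made up 0.310% of the 8 genes' sum in control, 41.2% at 8 h with BMH-21 and 11.2% at 8 h with CX-5461, and Krt15 from 0.679% to 25.3% and 11.8%. The share of Krt14, 1.43% in control, was 1.22% and 1.34% at 8 h. The sums leave out all other keratins, among them Krt42 of the type I cluster on chromosome 11. Krt42 had 2862, 2776 and 2506 reads in control, more than any of the 8 genes. At 8 h Krt42 differed by -1.85 with BMH-21 and by -0.39 with CX-5461. Since Krt5 was chosen for its rise, these sums and shares are descriptions.

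**Figure D4:**
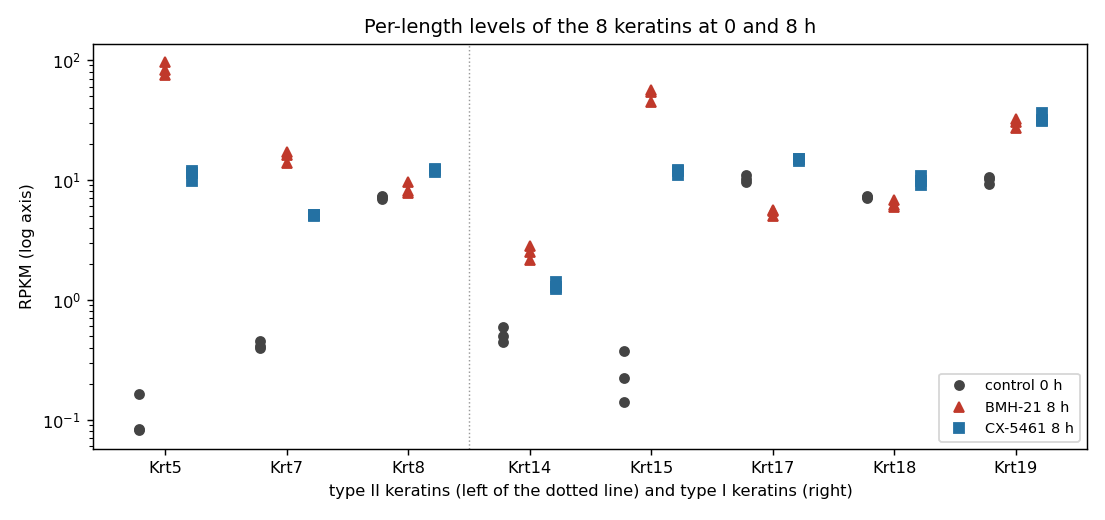
RPKM (log axis, reads per kb of transcript and 1000000 reads) of the type II and type I keratins (x axis) in the control, BMH-21 8 h and CX-5461 8 h libraries, 1 point per library. Krt5 and Krt15 lie lowest in control (0.110 and 0.246 on average) and highest after 8 h of BMH-21 (84.2 and 51.7), and Krt14 stays below 3 in every library.

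Across the 21 libraries, which share groups, depth and scaling, Krt5 correlated with Krt15 (Pearson r 0.98), Krt7 (0.97) and Krt14 (0.94). Krt8 correlated with Krt18 (0.91), and Krt17 with Krt18 (0.84) and Krt8 (0.71). Between these groups r was near 0 or negative, with Krt5 against Krt8 at -0.13, Krt18 at -0.48 and Krt17 at -0.56. Krt19 was at 0.58 to 0.73 with Krt5, Krt7, Krt14 and Krt15. With Krt8, Krt18 and Krt17 it was at 0.64, 0.31 and 0.00. After centring, Krt8 and Krt18 were at 0.80, Krt17 and Krt18 at 0.75 and Krt8 and Krt17 at 0.49. Krt19 was then at 0.53 with Krt8, 0.03 with Krt18 and -0.32 with Krt17. These values describe the pattern over groups and are not tests.

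The genes whose log2 pattern was closest to that of Krt5, among all tested, were Gm11544 and Matn1 (r 0.996), Sbsn and Adam8 (0.994), Rtkn (0.993), Slc4a11 (0.992), Man2b1 (0.991), and Dusp13, Sncg and C4b (0.990). Matn1 encodes the matrix protein matrilin, Sbsn the epidermal protein suprabasin, Man2b1 a lysosomal mannosidase and C4b a complement component. They were expressed at very different control levels, from -1.98 for Gm11544 to 6.01 for Man2b1. At 8 h each had a larger difference with BMH-21 than with CX-5461. Examples are 7.11 and 4.96 for Sbsn and 3.57 and 2.33 for Man2b1. Krt5 itself had this order, so the choice by likeness to Krt5 largely fixed it. Closest to Krt15 were C4b (0.993), Trpv1 and Asprv1 (0.991). Closest to Krt7 were Aldh1l1 (0.996), Gpx3 (0.995) and Col9a3 (0.994), and to Krt14 Siva1 (0.980), 9530053A07Rik and Ada (0.973). Krt8 was closest to Clic1 and Capn2 (0.969) and Selk (0.964), Krt18 to Gng2 and Gnb4 (0.976) and Erp29 (0.969), Krt17 to Bdh1 (0.981), Camkk2 and Trh (0.980), and Krt19 to Rec8 (0.978), P4ha2 (0.973) and Calr4 (0.971).

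Of the 43 other keratin genes, 14 passed the filter and 29 were too low to test. At 8 h of BMH-21, 9 of the 14 were called higher and 5 lower in limma, against 24.5% and 56.9% of all genes. The median difference was 2.17 (all genes -0.40). At 8 h of CX-5461, 9 were higher and 1 lower, against 35.1% and 14.3%, with a median of 1.80 (all genes 0.11). After centring the 8 h counts were 9 and 4, and 8 and 1. At 4 h 9 were higher and 3 lower with each inhibitor. The shares of all genes were 22.1% and 44.9% (BMH-21) and 19.8% and 51.2% (CX-5461). At 2 h 4 were higher and 0 lower with each, against 8.48% and 11.2% (BMH-21) and 7.45% and 20.5% (CX-5461). Several passed the filter only through treated libraries, so these counts are not support for a rise of the family. The counts by chromosome are to be read against the same shares at 8 h. On chromosome 11, 5 of the 9 tested were higher and 4 lower at 8 h of BMH-21. On chromosome 15, 4 of the 5 tested were higher and 1 lower. After 8 h of CX-5461 the counts were 5 and 1, and 4 and 0.

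The 5 other keratins with the largest difference at 8 h of BMH-21 were Krt36, Krt6a, Krt6b, Krt75 and Krt82. Krt36, a hair type I keratin, had 12, 10 and 8 reads in control, 1477, 2208 and 1874 at 8 h with BMH-21 and 245, 258 and 217 at 8 h with CX-5461. Its difference was 6.90 and 4.48. Krt36 was the only 1 of the 5 with more than 5 reads in any control library. Krt6a, a type II keratin of the hair follicle and of wounded epidermis, had 1, 2 and 2 reads in control and 227, 303 and 322 after 8 h of BMH-21. Its neighbour Krt6b had 1, 1 and 0 and then 66, 117 and 90. However, 50.1% of the 50-base words of Krt6b occur in other genes, most of all in Krt6a and Gm5478. Reads of Krt6a and Krt6b are thus not told apart with certainty. Krt75 went from 5, 0 and 1 reads to 94, 97 and 126, and Krt82 from 4, 2 and 4 to 84, 105 and 96. All 5 were picked for their difference and passed the filter only through treated libraries (Krt82 and Krt6b only through those of BMH-21 at 8 h), so their values are a description. Of the Krt5 transcript 8.5% of the 50-base words occur in other genes, most of all in Krt6a and Gm5478.

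**Figure D5:**
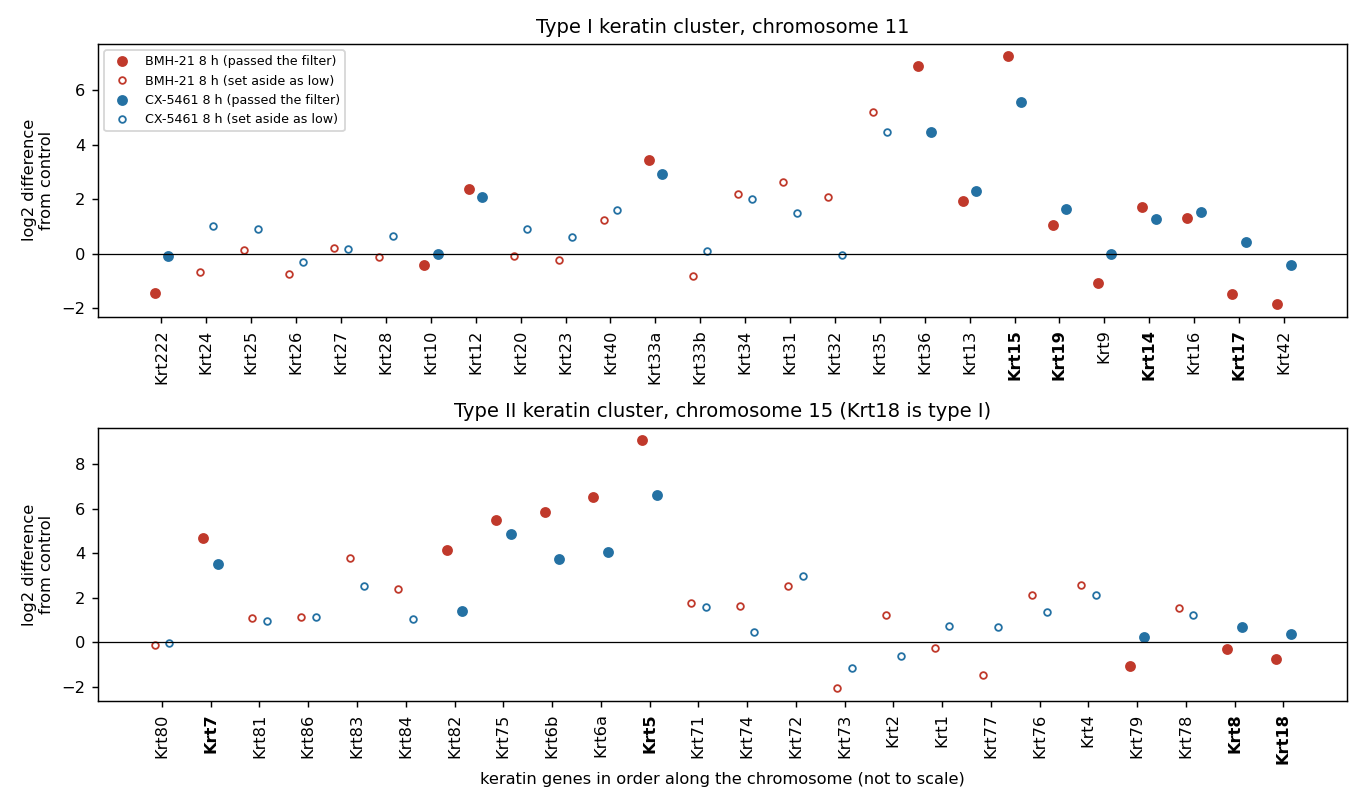
Log2 difference from control at 8 h (y axis) of 50 keratin genes in their order along the chromosome 11 and chromosome 15 clusters (x axis, not to scale), with BMH-21 (red) and CX-5461 (blue); filled points passed the filter on low levels, open points were set aside, and bold names are the 8 genes described. On chromosome 15 Krt82, Krt75, Krt6b, Krt6a and Krt5 stand side by side with differences of 4.12 to 9.06 for BMH-21, while Krt8 and Krt18 at the other end are at -0.29 and -0.74.

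Genes of the structures that keratins attach to were examined from lists chosen with earlier results of these data known, and each count is to be read against the shares over all genes tested, 24.5% higher and 56.9% lower at 8 h of BMH-21 and 35.1% and 14.3% at 8 h of CX-5461. Of 10 desmosome genes tested of 13, 6 were higher and 2 lower at 8 h of BMH-21, and 7 higher and 0 lower with CX-5461, with medians of 0.99 and 1.29. After centring the counts were 7 and 2, and 7 and 3. Pkp1, a plaque protein, was 3.74 higher with BMH-21, Perp, a membrane protein of desmosomes and a target of p53, 3.55 higher and the cadherin Dsc3 3.21 higher, whereas the cadherin Dsg2 fell by 2.35. With CX-5461 the first 3 were 2.64, 2.73 and 2.46 higher, and Dsg2 differed by -0.20 (limma adjusted p 0.18), or -0.42 after centring (4.9e-04). Pkp1 and Dsc3, with 3 to 8 and 4 to 11 control reads, passed the filter only through treated libraries, so their calls are not support. Of 9 hemidesmosome genes, 7 were higher and 1 lower with BMH-21 and 8 higher and 0 lower with CX-5461, or 8 and 1, and 6 and 0, after centring. Lamb3 and Lama3, chains of laminin-332, were 2.78 and 1.45 higher with BMH-21, and the integrin Itgb4 2.06 higher, while the collagen Col17a1 fell by 0.58 with BMH-21 (-0.37 after centring).

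The transcription factors of stratified epithelium moved less, and in both directions. Trp63, the master factor of basal epithelium, had 3 to 6 reads in control libraries, 8 to 18 (BMH-21) and 5 to 9 (CX-5461) at 8 h, and was too low to test. Of 9 such factors tested of 12, 3 were higher and 3 lower at 8 h of BMH-21, and 6 higher and 0 lower with CX-5461. After centring the counts were 6 and 3, and 5 and 2. Grhl2, Tfap2a and Ovol1 fell with BMH-21, by 1.35, 1.21 and 1.03. Summed over the 12 genes, the level was 255 to 273 RPM in control, 423 to 466 (BMH-21) and 348 to 371 (CX-5461) at 8 h, with 0 of the 12 genes at 0 reads. Of 6 genes of the later epidermal layers tested of 10 in the table, 1 was higher (Lor, by 0.92) and 1 lower (Krt10, by -0.41) at 8 h of BMH-21, and 2 higher and 0 lower with CX-5461. After centring the counts were 3 and 0, and 2 and 2, with Krt10 at -0.20 (limma adjusted p 0.082). Lor, with 28 to 42 control reads, passed the filter only through treated libraries, so its higher calls are not support. Sfn, a cell cycle inhibitor and target of p53, differed by -0.19 with BMH-21 (limma adjusted p 0.1) and was 1.72 higher with CX-5461. Tgm1, the transglutaminase of the cornified envelope, differed by -0.07 (0.53) and -0.09 (0.5), or 0.14 (0.0093) and -0.31 (3.0e-06) after centring.

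Markers of other cells that make keratins, or that could be in the culture, were counted likewise, against 24.5% and 56.9% of all genes at 8 h of BMH-21 and 35.1% and 14.3% at 8 h of CX-5461, and their part in the keratin changes was not tested. Of 8 trophoblast genes tested of 11 in the table, 4 were higher and 3 lower at 8 h of BMH-21 and 5 higher and 1 lower with CX-5461, or 5 and 3, and 4 and 1, after centring. Hand1 and Cdx2 were 1.45 and 1.36 higher with BMH-21, and Tead4 and Esx1 fell by 1.90 and 1.36. Cdx2, with 25 to 44 control reads, passed the filter only through treated libraries, so its higher calls are not support. The sum of the 11 trophoblast genes was 30.6 to 32.7 RPM in control, 23.0 to 24.0 and 23.4 to 25.3 at 4 h of BMH-21 and CX-5461, and 41.4 to 43.2 and 45.9 to 49.8 at 8 h. Prl3d1 was at 0 reads in the control and CX-5461 8 h libraries.

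Of 8 fibroblast genes, which would mark feeder cells, 5 were tested, and 2 were higher and 2 lower at 8 h of BMH-21, and 3 higher and 1 lower with CX-5461, with medians of 0.07 and 0.60. After centring the counts were 2 and 2 for each. At 8 h of BMH-21, Pdgfra and Col1a1 were 2.01 and 1.86 higher, and Thy1 and Acta2 fell by 1.41 and 1.16. The sum was 47.5 to 51.9 RPM in control, 73.8 to 79.5 (BMH-21) and 54.4 to 59.0 (CX-5461) at 8 h, with 0 of the 8 genes at 0 reads. All 8 embryonic stem cell markers were lower at 8 h of BMH-21, led by Esrrb (-2.28), Zfp42 (-2.21), Nanog (-2.13) and Utf1 (-2.13), and 6 were lower and 1 higher with CX-5461, or 7 and 1 after centring.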

How the data were processed

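Poly(A) RNA-seq libraries of E14 cells, 3 in each of 7 groups, were made with a directional kit, per the labels' protocols. The submitters' processing notes name Trim Galore 0.5.0, TopHat2 2.1.1, R 4.0.5, DESeq2 1.30.1, edgeR 3.32.1, limma 3.46.0 and the mm10 build, and the counting program, its use of strand and the annotation are not given in the sources used here. The authors deposited 1 table of log2 expression values whose name says voom-normalised. Those log2 values gave whole reads to within 1.7e-08, with an offset of 0.5 reads and a scaling factor per library from 0.832 to 1.375, whose origin is not stated. Median-ratio factors of the same reads ran from 0.941 to 1.107. Replicate pairs differed beyond sampling noise (chi-square per degree of freedom 2.58 to 26), so none was taken for a library deposited again.

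Differences were tested in R 4.3.3 with limma 3.58.1, giving each group a mean and fitting all 21 libraries together on the log2 scale of the deposit, with eBayes using a variance trend, two-sided, and Benjamini-Hochberg adjustment over 14666 genes in each of 11 comparisons, with a threshold of 0.05. The filter, log2 above 0 in at least 3 libraries, set aside 6234 genes. The variance prior carried 111.5 degrees of freedom beside 14 from the replicates (8.5 after centring), so a gene's own spread had little weight. The alternatives were no filter, a stricter filter (log2 above 2), an offset of 5 reads, centring, median-ratio factors, quantile normalization, no variance trend, voom weights, only the groups compared, the replicate block and leaving out each replicate.

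The members, the lists and the rule for named genes were chosen with earlier results of these data known. The rule names the 8 keratins, the 10 genes closest in pattern to Krt5 and the 3 closest to each other member, and the other keratins (5) and list genes (4 per list) with the largest difference at 8 h of BMH-21. GENCODE M21, which matched 95.8% of the symbols, gave positions, transcript lengths and shared words of 50 bases. The exons of Krt5, Krt7 and Krt8 overlap antisense genes (Gm44323, Gm671 and Gm36026) that were not analysed here. Flg, Sprr2a1 and Tpbpa of the lists were not analysed here, and 1 gene that the rule names is not reported here. Figures were drawn with matplotlib 3.10.9 (Python 3.11.15).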

Additional observations from a re-analysis of the deposited data

Results flagged for a closer look

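The effect of 8 h of treatment differed between the 2 inhibitors for 3 keratin genes whose libraries, on the deposited scale, all lay below control with BMH-21 and all above control with CX-5461. For Krt8 the BMH-21 difference from control was -0.08 after centring (limma adjusted p 0.33) and 0.06 with median-ratio factors. For Krt18 the CX-5461 difference was 0.15 after centring (limma adjusted p 0.11) and 0.06 with quantile normalization (0.57). Only Krt17 kept both calls after centring, at -1.25 and 0.23. In the direct limma comparison at 8 h, BMH-21 minus CX-5461 was -0.96 on the log2 scale for Krt8, -1.91 for Krt17 and -1.11 for Krt18. The 3 genes were singled out because both differences from control were called, with opposite signs, and the direct difference was called too. These differences are therefore a description. Part of each difference was shared by all genes, whose median was -0.48, and centring left -0.54, -1.48 and -0.68. At 4 h the same comparison gave 0.03, 0.02 and -0.03.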

How the results depend on the processing

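Each log2 difference of the 8 genes and each count of called genes among the 7 other than Krt5 was recomputed under each alternative, which left the counts at 4 and 8 h against control, between inhibitors at 8 h and between 8 and 4 h within 1.5 times. The count at 2 h of BMH-21 (2) was 1 with voom weights and 1 to 3 on leaving out 1 library, the 1 being without BMH-21 2 h replicate 2. BMH-21 against CX-5461 at 2 h (0 genes, with 1 by quantile normalization) ranged from 0 to 1, the 1 being without BMH-21 2 h replicate 2 or 3. At 4 h that comparison (1 gene) gave 0 with no filter, 2 with centring, with median-ratio factors and with voom weights, 3 with quantile normalization, and 0 to 1 on leaving out 1 library, the 0 being without BMH-21 4 h replicate 1 or 2 or CX-5461 4 h replicate 1 or 3. Replicate numbers did not pair the libraries: over 63 pairs of libraries with the same number, deviations from group means correlated at -0.25 to 0.11 (median 0). With the replicate number as a block, that 4 h count was 0, and no other count of called genes changed.

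Signs changed in 1 difference that had been called, Krt8 at 8 h of BMH-21 (0.06 with median-ratio factors), and in others that had not. At 2 h of CX-5461 against control, centring, median-ratio factors and quantile normalization gave Krt8 0.06, 0.10 and 0.06, Krt17 0.07, 0.11 and 0.08, and Krt19 0.06, 0.10 and 0.06. For Krt19 at 4 h of BMH-21 they gave 0.11, 0.14 and 0.09, and for Krt15 between 8 and 4 h of CX-5461 -0.14, -0.14 and -0.15. Quantile normalization gave -0.06 for Krt14 between 8 and 4 h of CX-5461. Krt18 between 8 and 4 h of BMH-21 was 0.00 with centring and 0.12 with median-ratio factors. Between inhibitors at 2 h, Krt18 was -0.02 with centring, -0.05 with median-ratio factors and -0.00 with quantile normalization, and Krt14 was 0.01 with an offset of 5 reads and 0.00 with voom weights. Between them at 4 h, median-ratio factors gave -0.04 for Krt8 and -0.05 for Krt17. Leaving out 1 library gave, between inhibitors at 2 h, -0.09 to 0.03 for Krt8, -0.13 to 0.10 for Krt14, -0.16 to 0.01 for Krt17 and -0.05 to 0.18 for Krt18. At 4 h it gave -0.03 to 0.07 for Krt8, -0.05 to 0.08 for Krt17 and -0.09 to 0.06 for Krt18. Against control it gave -0.18 to 0.01 for Krt17 and -0.20 to 0.05 for Krt19 at 2 h of CX-5461, and -0.15 to 0.02 for Krt19 at 4 h of BMH-21. The cause was not tested.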

Other observations

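Other intermediate filament genes did not share a direction. Of 13 tested, 4 were higher and 6 lower at 8 h of BMH-21, and 9 were higher and 2 lower at 8 h of CX-5461, with medians of -0.12 and 0.46 beside -0.40 and 0.11 over all genes tested, of which 24.5% were higher and 56.9% lower at 8 h of BMH-21, against 35.1% and 14.3% for CX-5461. Synm, which encodes synemin, a partner of desmin and vimentin, was 3.39 (BMH-21) and 2.57 (CX-5461) higher on the log2 scale. The neuronal filament genes Ina and Nefl fell by 2.19 and 1.56 with BMH-21, and the nuclear lamin Lmnb1 fell by 1.62. With CX-5461 they differed by -0.61, 0.46 and -0.64.

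Of 12 genes of simple epithelial junctions and splicing, 4 were higher and 5 lower at 8 h of BMH-21, against 24.5% and 56.9% of all genes. With CX-5461 7 were higher and 2 lower, against 35.1% and 14.3%. The medians were -0.20 and 0.47, beside -0.40 and 0.11 over all genes tested. After centring these counts were 5 and 5, and 6 and 4. The epithelial splicing regulators went opposite ways with BMH-21, where Esrp1 fell by 2.23 and Esrp2 was 2.01 higher. With CX-5461 they differed by -0.32 and 1.07. Cldn4, a tight junction protein, was 1.12 and 1.04 higher, and Epcam fell by 0.90 and 0.45. Krt35, a hair keratin too low to test and named after its values were seen, had 0 reads in all 3 control libraries, 21, 27 and 34 at 8 h with BMH-21, and 13, 10 and 10 in the CX-5461 libraries of that time.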
